A study of Mus musculus with 12 samples.

Results

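The genes of laminins, collagen IV and their basement membrane partners were followed in mouse embryoid bodies in which the transcription factor LHX1 was switched on. The set held 10 genes chosen by symbol, *Lama1*, *Lama5*, *Lamb1*, *Lamc1*, *Col4a1*, *Col4a2*, *Nid1*, *Nid2*, *Hspg2* and *Sparc*, out of 23086 rows in the count table. All 10 passed the filter on low counts, which left 12322 genes to test. Embryoid bodies are aggregates that embryonic stem cells form when they begin to differentiate. Both lines descend from A2lox.cre embryonic stem cells and carry a FLAG-tagged *Lhx1*, which encodes a LIM homeobox transcription factor. There were 3 libraries each of mutant embryoid bodies given doxycycline, mutant embryoid bodies without it, wild-type embryoid bodies given doxycycline and wild-type embryoid bodies without it. "Mutant" and "wild-type" name the form of FLAG-*Lhx1* in the line, and the labels do not say what the mutation is. All embryoid bodies had been differentiated for 2 days, and doxycycline was given for 16 h. The labels do not give the number of clones behind each line, so the form of FLAG-*Lhx1* and any other difference between the lines cannot be told apart.

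Basement membranes are thin sheets of extracellular matrix on which epithelia rest. Laminins are trimers of an alpha, a beta and a gamma chain that polymerise on the cell surface, collagen IV forms a network of its own, and nidogens and perlecan link the networks. In the implanting mouse embryo the primitive endoderm secretes much of the laminin on which the epiblast becomes an epithelium, and this basement membrane is breached at the primitive streak.

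Total counts per library ran from 4289984 to 4850393, and the 10 genes took 0.0803% to 0.111% of them. *Lhx1* had 1140 to 1218 counts in mutant libraries with doxycycline and 2 in each mutant library without it. It had 1218 to 1346 counts in wild-type libraries with doxycycline and 5 to 14 without it. The rise passed edgeR's test in both lines (adjusted p = 4.55e-48 in the mutant and 3.86e-48 in the wild-type line). With doxycycline *Lhx1* was lower in the mutant line than in the wild-type line (log2 fold change -0.25, adjusted p = 6.93e-05, edgeR). A pair of libraries stood apart. Replicate 2 of the doxycycline-treated wild-type line had 1.45% of its counts on the ribosomal RNA gene *Rn45s*, against 0.0884% to 0.265% elsewhere. Replicate 3 of the untreated wild-type line had 229 CPM of *Bnip3*, a hypoxia-responsive gene, against 58.5 and 63.3 CPM in the others of its group. Results that changed without these libraries are given both ways. Levels are in CPM, counts scaled to library size with edgeR's TMM factors. Fold changes and adjusted p-values come from edgeR's quasi-likelihood test over all tested genes, and a gene was called at an adjusted p under 0.05. The test gives no standard error (SE). The SE was derived as the absolute log2 fold change over the square root of the test's F statistic. The comparisons share groups of libraries, so they are not independent of one another.

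Per kilobase of exon, the level of *Nid2* was the highest of the set at 41.97 CPM per kb, as the mean over the 4 groups. *Nid2* encodes nidogen-2, a linker between laminin and collagen IV. *Sparc*, which encodes a secreted glycoprotein that binds collagen IV, followed at 35.4 CPM per kb. *Lamc1*, the gamma-1 chain shared by most laminins, had 21.4, *Lama5* 15.5 and *Lamb1* 9.99 CPM per kb. *Hspg2*, the gene of the proteoglycan perlecan, had 8.15 and *Col4a1* 4.53 CPM per kb. The lowest levels were those of *Nid1*, *Col4a2* and *Lama1*, at 2.99, 1.90 and 1.09 CPM per kb. The order rests on the length used, since with the longest annotated transcript *Sparc* came first at 58.4 CPM per kb and *Lamb1* passed *Lama5*, at 17.1 against 15.5. Libraries of *Nid2* and *Sparc*, of *Lamc1* and *Lama5*, of *Lamb1* and *Hspg2*, of *Col4a1* and *Nid1*, and of *Col4a2* and *Lama1* overlapped in at least 1 group, so those neighbours were not separated everywhere. Of the *Nid2* exon length, 8.45% is shared with the gene *Rtraf*, and the sources used here do not say whether counting used strand.

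**Figure D1:**
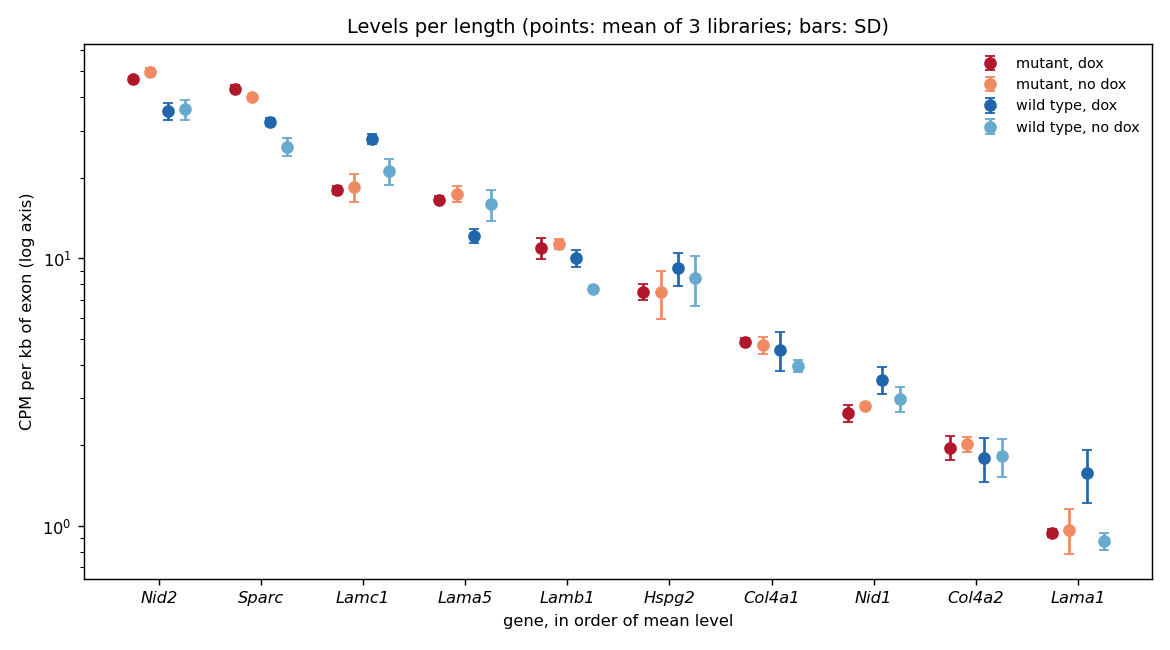
Level of each gene per kilobase of exon, in CPM per kb on a log axis, by group (points: mean of 3 libraries, bars: SD). The genes run in order of their mean over the 4 groups, with *Nid2* at 41.97 and *Lama1* at 1.09 CPM per kb.

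Doxycycline in the wild-type line went with higher counts of the laminin chains *Lama1*, *Lamb1* and *Lamc1* and of *Sparc*, and with lower counts of *Lama5*. These 5 of the 10 genes were called, 4 higher and 1 lower, where 5.32% of all tested genes were called (2.76% higher, 2.56% lower). The same 5 were the ones whose treated and untreated libraries did not overlap, against 18.9% of all tested genes. Collagen IV, both nidogens and perlecan were not called. The median log2 fold change of the 10 genes was 0.22, beside -0.00344 over all tested genes. In bulk RNA, more cells of a kind and more RNA per cell cannot be told apart.

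*Lama1*, on chromosome 17 (mm10, chr17:67697259-67822647, + strand), encodes the alpha-1 chain of laminin-111, the main laminin of the early embryo. It had 15.3, 18.5 and 11.7 CPM in wild-type libraries with doxycycline, against 9.04, 8.59 and 7.85 CPM without it. All treated libraries lay above the untreated ones, with replicate 2 the highest. The level was 1.78-fold higher (log2 fold change 0.83 with an SE of 0.18, adjusted p = 0.00103, edgeR). These are low counts, 54 to 78 per treated library and 35 to 38 per untreated one. Without the 2 libraries that stood apart the log2 fold change was 0.61 and no longer called (adjusted p = 0.103, edgeR).

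*Lamb1* encodes the beta-1 chain, which pairs with either alpha chain of the set. It lies at chr12:31265234-31329644 (mm10, + strand). The wild-type libraries had 104, 103 and 91.1 CPM with doxycycline, against 77.5, 73.9 and 77.6 CPM without it. Treated and untreated libraries were well apart, at a log2 fold change of 0.38 (its SE was 0.07, adjusted p = 0.000128, edgeR). The bases just upstream of *Lamb1* are shown because it was the 1 gene of the set for which edgeR called a difference in response between the lines. They come from RefSeq (GRCm38.p6) and cover chr12:31265043-31265233 on the + strand, which is outside annotated exons. Capitals mark CCAAT and GGGCGG on either strand, the letters of a CCAAT box and of a GC box.
Lamb1: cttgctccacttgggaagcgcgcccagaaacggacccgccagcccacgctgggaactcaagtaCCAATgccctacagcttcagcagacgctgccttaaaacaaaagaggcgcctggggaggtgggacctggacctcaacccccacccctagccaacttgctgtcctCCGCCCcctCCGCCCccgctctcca

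*Lamc1* (mm10, chr1:153218922-153332786, - strand) had 219.6, 239.9 and 235 CPM in wild-type libraries with doxycycline, against 181, 154 and 192 CPM without it. The groups did not overlap, and replicate 2 was lowest among the untreated libraries. The log2 fold change was 0.40 (SE 0.08, adjusted p = 0.00465, edgeR).

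*Lama5* (mm10, chr2:180176373-180225859, - strand) encodes the alpha-5 chain of laminin-511, the laminin on which pluripotent stem cells are often grown. Its levels were 131, 148 and 136 CPM in wild-type libraries with doxycycline, against 178, 158 and 207 CPM without it. Each treated library lay below each untreated one, and the highest untreated value was that of the replicate with high *Bnip3*. The log2 fold change was -0.39 (SE 0.08, adjusted p = 0.00153, edgeR). Its upstream bases are printed beside those of *Lamb1* because this was the only gene of the set called in the other direction. They are from RefSeq (GRCm38.p6), chr2:180225860-180226109 on the - strand, with capitals for GGGCGG on either strand.
Lama5: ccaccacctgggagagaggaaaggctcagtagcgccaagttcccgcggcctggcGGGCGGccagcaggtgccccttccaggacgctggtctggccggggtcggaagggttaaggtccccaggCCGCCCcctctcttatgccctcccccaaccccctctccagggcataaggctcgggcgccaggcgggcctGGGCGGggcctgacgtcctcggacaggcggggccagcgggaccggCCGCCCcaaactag

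The *Lama5* stretch held 4 matches of GGGCGG and no CCAAT, and 72.4% of its bases were G or C. The *Lamb1* window of 250 bases held 1 CCAAT and 2 GGGCGG. Promoter windows were found for 7 of the 10 genes, but not for *Lama1*, *Lamc1* and *Nid2*, so the counts below leave these out. In the 250 bases upstream, CCAAT occurred on either strand in 4 of the 7, *Col4a1*, *Col4a2*, *Lamb1* and *Nid1*, and in 33.8% of 32851 mouse windows. GGGCGG occurred in 5 of the 7, against 32.7% of windows. TAATTA, the letters that many homeodomain proteins bind and its own reverse complement, was in 0 of the 7 windows and in 4.84% of all. TATAAA was in 0 of the 7 and in 12.4% of all. These are matches of letters and no measure of binding.

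*Sparc* (mm10, chr11:55394500-55423183, - strand) had 121, 127 and 119 CPM in wild-type libraries with doxycycline, against 105, 101 and 90.3 CPM without it. No library of one group reached the other, and the SD was 4.21 CPM with doxycycline and 7.78 CPM without it. The log2 fold change was 0.31 (SE 0.06, adjusted p = 0.000411, edgeR). Without the 2 libraries that stood apart it was 0.21, with an edgeR adjusted p of 0.0689.

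The collagen IV pair did not pass the test. *Col4a1* and *Col4a2* encode the alpha-1 and alpha-2 chains of the common collagen IV trimer, and lie head to head (mm10, chr8:11198423-11312826 on the - strand and chr8:11312805-11449287 on the + strand). Their first exons overlap by 22 bases. *Col4a1* had 29.0, 32.5 and 40.0 CPM in wild-type libraries with doxycycline, against 30.9, 29.8 and 27.8 CPM without it, a log2 fold change of 0.20 (its SE was 0.11, adjusted p = 0.371, edgeR). The treated and untreated libraries overlapped, and the treated ones were spread over a wider range. *Col4a2* had 13.3, 13.1 and 9.35 CPM with doxycycline, against 14.0, 10.2 and 11.9 CPM without it (log2 fold change -0.02 with an SE of 0.17, adjusted p = 0.974, edgeR). In treated replicate 3, *Col4a1* was at its highest and *Col4a2* at its lowest of all 12 libraries.

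The linkers were not called either. *Nid1*, the gene of nidogen-1 (mm10, chr13:13437551-13512269, + strand), had 22.2, 23.5 and 27.6 CPM in wild-type libraries with doxycycline, against 20.2, 18.8 and 23.1 CPM without it (log2 fold change 0.24 with an SE of 0.12, adjusted p = 0.337, edgeR). *Nid2* (chr14:19751265-19811787, + strand) had 171, 181 and 198 CPM with doxycycline, against 188, 169 and 202 CPM without it (log2 fold change -0.02 with an SE of 0.06, adjusted p = 0.915, edgeR). *Hspg2* (chr4:137468769-137570630, + strand) had 120.2, 153 and 122 CPM with doxycycline, against 120.1, 95.4 and 146 CPM without it (log2 fold change 0.12 with an SE of 0.19, adjusted p = 0.851, edgeR). The libraries of the groups overlapped for all 3 genes, and the untreated ones of *Hspg2* alone ran from 95.4 to 146 CPM.

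**Figure D2:**
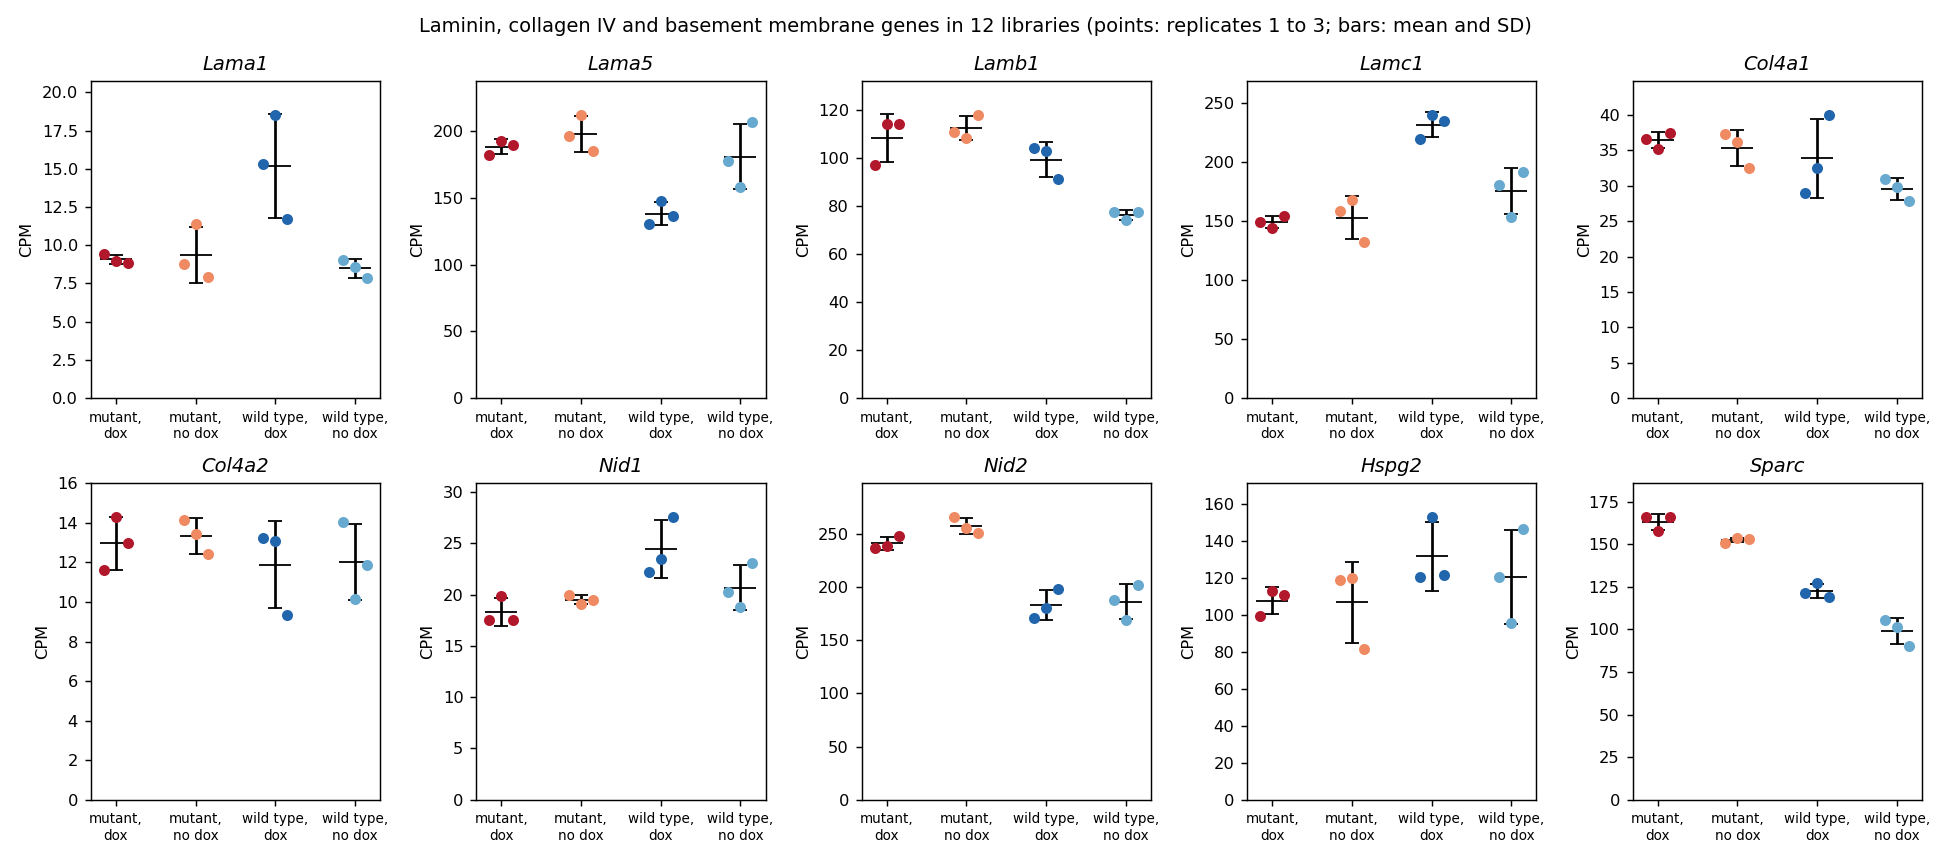
Level of each of the 10 genes in every library, in CPM from 0, with the 4 groups side by side (points: replicates 1 to 3, bars: mean and SD). For *Lama1*, *Lamb1*, *Lamc1* and *Sparc* the doxycycline-treated wild-type libraries lie above the untreated wild-type ones, for *Lama5* below, and the mutant groups lie close together.

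In the mutant line, where doxycycline raised *Lhx1* as well, none of the 10 genes was called. By edgeR 0 of the 10 had an unadjusted p under 0.05, and DESeq2 and limma-voom also called 0. Only 0.0162% of all tested genes were called by edgeR, 2 genes in number, while 578 had an unadjusted p under 0.05. The 2 genes were *Lhx1* itself and *Hprt*, which rose in both lines (log2 fold change 1.43 in the mutant and 1.99 in the wild-type line). The laminin chains *Lama1*, *Lama5*, *Lamb1* and *Lamc1* had log2 fold changes of -0.05, -0.07, -0.05 and -0.03, with SEs of 0.19, 0.07, 0.07 and 0.08. *Lama1*, for example, had 9.43, 8.97 and 8.86 CPM in mutant libraries with doxycycline, against 8.80, 11.4 and 7.91 CPM without it, and the ranges crossed. *Lamb1* had 96.9, 114 and 114 CPM with doxycycline, against 111, 108 and 118 CPM without it, again with crossing ranges.

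For *Lamc1* the mutant line had 149.5, 144 and 154 CPM with doxycycline, against 158, 168 and 132 CPM without it. For *Lama5* it had 183, 193 and 190.2 CPM, against 196, 212 and 186 CPM. For both genes treated and untreated libraries overlapped. *Col4a1* had 36.6, 35.2 and 37.5 CPM with doxycycline, against 37.4, 36.2 and 32.5 CPM without it, and *Col4a2* had 11.6, 14.3 and 12.98 CPM, against 14.2, 13.4 and 12.4 CPM. *Nid1* had 17.5, 19.9 and 17.5 CPM with doxycycline, against 19.97, 19.1 and 19.5 CPM without it. *Hspg2* had 99.1, 113 and 111 CPM with doxycycline, against 119, 119.7 and 81.5 CPM without it, where untreated replicate 3 was low. All 4 overlapped between treated and untreated libraries, at log2 fold changes of 0.04, -0.04, -0.09 and 0.01. *Nid2* and *Sparc* were the only 2 of the 10 without overlap between treated and untreated mutant libraries, against 10.6% of all tested genes. *Nid2* had 237, 239 and 248 CPM with doxycycline, against 266, 255 and 251 CPM without it (log2 fold change -0.09 with an SE of 0.05, adjusted p = 0.999, edgeR). *Sparc* had 166, 158 and 166 CPM with doxycycline, against 151, 153 and 153 CPM without it (log2 fold change 0.10 with an SE of 0.06, adjusted p = 0.999, edgeR). Neither difference passed the test.

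The response of *Lamb1* differed between the lines: its log2 fold change on doxycycline was -0.05 in the mutant line and 0.38 in the wild-type line, a difference of -0.43 (SE 0.10, adjusted p = 0.00403, edgeR). It was the only one of the 10 genes called in this test, which called 2.49% of all tested genes, 1.09% higher and 1.4% lower. DESeq2 gave the *Lamb1* difference an adjusted p of 0.0610 and called that of *Lamc1* instead (adjusted p = 0.0310). The differences of *Lama1*, *Lamc1*, *Lama5* and *Sparc*, mutant minus wild-type response, were -0.88, -0.43, 0.32 and -0.21, with SEs of 0.26, 0.12, 0.10 and 0.08. None of these was called (edgeR adjusted p-values of 0.0533, 0.0634, 0.127 and 0.224), though all 4 had an unadjusted p under 0.05. Their calls moved with the processing. *Lamc1* was called in 8 of 19 alternatives, *Lama1* in 3 and *Lama5* in 2. Without untreated mutant replicate 3 *Lamc1* reached an edgeR adjusted p of 5.51e-05 and *Lama1* one of 0.0304, and without untreated wild-type replicate 2 *Lama5* reached 0.00344 and *Lamc1* 0.0326. *Lamc1* was also called without untreated wild-type replicate 3 (adjusted p = 0.0102, edgeR), without both libraries that stood apart (0.0460), and *Lama1* without treated wild-type replicate 3 (adjusted p = 0.0161, edgeR). In untreated mutant replicate 3 log2 CPM deviated from the group mean by -0.215 for *Lama1*, -0.199 for *Lamc1* and -0.365 for *Hspg2*. *Lamb1* and *Sparc* went the other way there (0.071 and 0.005). Untreated wild-type replicate 2 had -0.183 for *Lama5*, -0.184 for *Lamc1* and -0.314 for *Hspg2*, with *Lama1*, *Col4a1* and *Sparc* slightly above the mean. Several genes thus moved in the same libraries, and the cause was not tested. For *Col4a1*, *Col4a2*, *Nid1*, *Nid2* and *Hspg2* the differences were -0.16, -0.02, -0.33, -0.07 and -0.11, with edgeR adjusted p-values from 0.444 to 0.986.

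**Figure D3:**
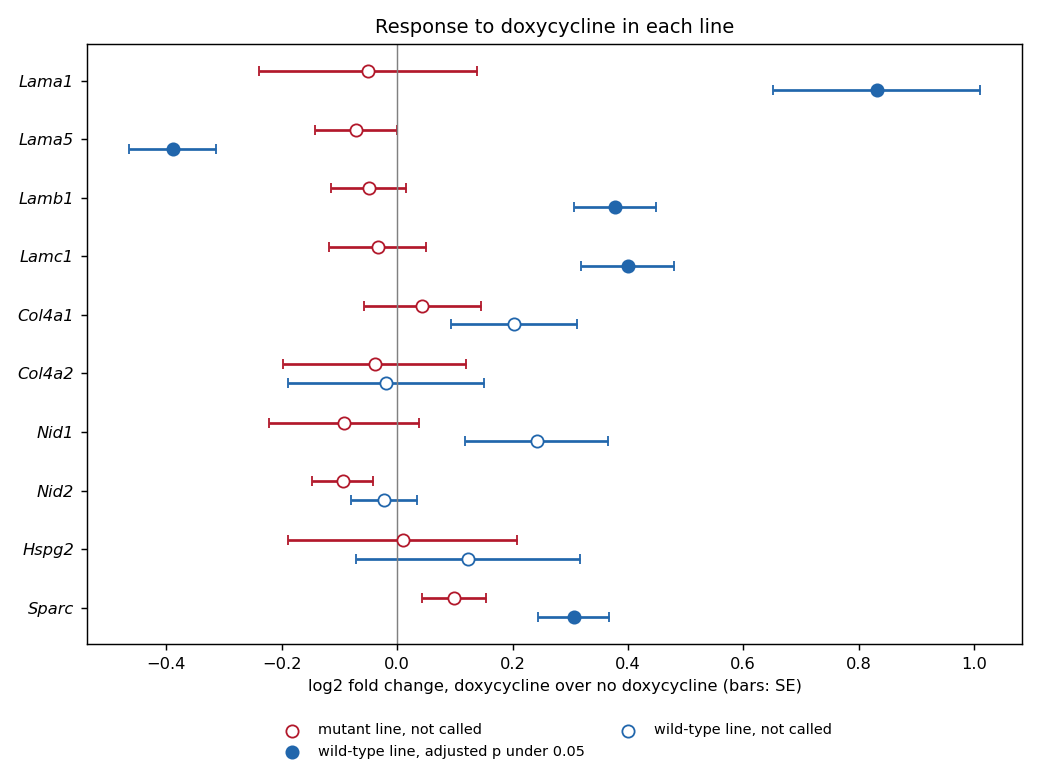
Log2 fold change of each gene on doxycycline over no doxycycline in the mutant line and in the wild-type line (points, with bars of 1 SE; filled points were called at an adjusted p under 0.05). In the wild-type line *Lama1* at 0.83, *Lamc1* at 0.40, *Lamb1* at 0.38, *Sparc* at 0.31 and *Lama5* at -0.39 are filled, and no point of the mutant line is.

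The balance of partner genes, per kilobase of exon and within each library, followed the line, the treatment, both or neither, and is given without a test. *Lama1* made up 5.37% ± 0.309 of *Lama1* plus *Lama5* in treated mutant and 5.24% ± 0.617 in untreated mutant embryoid bodies. In the wild-type line its share was 11.4% ± 1.93 with doxycycline and 5.30% ± 0.908 without it (SD, n = 3 per group). The treated wild-type libraries, at 9.20% to 12.8%, stood above all others. *Nid2* over *Nid1* was 17.8 ± 1.48 in treated mutant and 17.7 ± 0.346 in untreated mutant embryoid bodies, against 10.1 ± 0.396 in treated and 12.1 ± 0.360 in untreated wild-type ones. In the wild-type line the treated libraries, at 9.65 to 10.3, lay below the untreated ones, at 11.8 to 12.5. *Lamb1* over *Lamc1* was also higher in the mutant line, at 0.605 ± 0.0600 treated and 0.621 ± 0.108 untreated. The wild-type line had 0.359 ± 0.0358 treated and 0.365 ± 0.0326 untreated, and there treated and untreated libraries overlapped. With the longest transcript as length these ratios were 0.957 and 0.981 in the mutant line, against 0.567 and 0.577 in the wild-type line. *Col4a1* over *Col4a2* lay between 2.21 and 2.65 in the 4 groups, with SDs of 0.0357 to 1.00, so the groups were not separated.

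Without doxycycline, mutant embryoid bodies had more *Sparc*, *Lamb1*, *Nid2* and *Col4a1* than wild-type ones. These 4 of the 10 genes were called, all higher, where 45.5% of all tested genes were called (23.0% higher, 22.6% lower), so the share of the set was near the background. The same 4 had no overlap between the lines, beside 51.8% of all tested genes. *Sparc* had 151, 153 and 153 CPM in the mutant line, against 105, 101 and 90.3 CPM in the wild-type line (log2 fold change 0.62 with an SE of 0.06, adjusted p = 4.95e-13, edgeR). *Lamb1* had 111, 108 and 118 CPM in the mutant line, against 77.5, 73.9 and 77.6 CPM in the wild-type line (log2 fold change 0.56 with an SE of 0.07, adjusted p = 1.50e-09, edgeR). Both genes kept the lines far apart, and both were also higher on doxycycline within the wild-type line. *Nid2* had 266, 255 and 251 CPM in the mutant line, against 188, 169 and 202 CPM in the wild-type line (log2 fold change 0.47 with an SE of 0.05, adjusted p = 5.09e-10, edgeR).

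*Col4a1* had 37.4, 36.2 and 32.5 CPM in untreated mutant libraries, against 30.9, 29.8 and 27.8 CPM in wild-type ones. The lines did not overlap, but the call was close to the threshold (log2 fold change 0.26 with an SE of 0.11, adjusted p = 0.0407, edgeR). It was lost in 6 of 14 alternatives, among them DESeq2 with an adjusted p of 0.173. Leaving out untreated mutant replicate 1 or 2, or untreated wild-type replicate 2 or 3, gave edgeR adjusted p-values of 0.140, 0.105, 0.0720 and 0.136, and leaving out both libraries that stood apart gave 0.143. *Lama1*, *Lama5*, *Lamc1*, *Col4a2*, *Nid1* and *Hspg2* had log2 fold changes of 0.15, 0.13, -0.20, 0.15, -0.09 and -0.18 and were not called. Of these, *Lama5* depended on the untreated wild-type library with high *Bnip3*, and without it was 0.24 higher on the log2 scale in the mutant line (adjusted p = 0.00128, edgeR). *Lamc1*, at an edgeR adjusted p of 0.0630, was called lower in the mutant line in 5 of the 14 alternatives, among them without untreated wild-type replicate 2 (log2 fold change -0.29, adjusted p = 0.000925, edgeR) and without untreated mutant replicate 2 (-0.27, adjusted p = 0.00623, edgeR).

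With doxycycline in both lines, the laminin chains went in opposite directions. *Lama5*, *Nid2* and *Sparc* were higher in the mutant line, and *Lama1*, *Lamc1* and *Nid1* were lower. These are 6 of 10 genes, beside 44.4% of all tested genes called (21.9% higher, 22.4% lower). *Lamc1* had 149.5, 144 and 154 CPM in mutant libraries, against 219.6, 239.9 and 235 CPM in wild-type ones (log2 fold change -0.63 with an SE of 0.08, adjusted p = 5.83e-06, edgeR). *Lama1* had 9.43, 8.97 and 8.86 CPM in mutant libraries, against 15.3, 18.5 and 11.7 CPM in wild-type ones (log2 fold change -0.73 with an SE of 0.17, adjusted p = 0.000430, edgeR). For both chains every mutant library was below every wild-type library. *Nid1* had 17.5, 19.9 and 17.5 CPM in mutant libraries, against 22.2, 23.5 and 27.6 CPM in wild-type ones (log2 fold change -0.42 with an SE of 0.13, adjusted p = 0.00516, edgeR). The *Nid1* call was lost with DESeq2 (adjusted p = 0.0527) and without treated wild-type replicate 3 (adjusted p = 0.0678, edgeR).

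*Lama5* had 183, 193 and 190.2 CPM in treated mutant libraries, against 131, 148 and 136 CPM in treated wild-type ones (log2 fold change 0.45 with an SE of 0.07, adjusted p = 2.98e-05, edgeR). *Nid2* had 237, 239 and 248 CPM, against 171, 181 and 198 CPM (log2 fold change 0.39 with an SE of 0.06, adjusted p = 4.33e-08, edgeR). *Sparc* had 166, 158 and 166 CPM, against 121, 127 and 119 CPM (log2 fold change 0.42 with an SE of 0.06, adjusted p = 2.17e-08, edgeR). *Nid2* and *Sparc* were thus higher in the mutant line with and without doxycycline. *Lamb1*, at 96.9, 114 and 114 CPM in the mutant line and 104, 103 and 91.1 CPM in the wild-type line, was not called (log2 fold change 0.13 with an SE of 0.07, adjusted p = 0.114, edgeR). It was called without treated mutant replicate 1 (log2 fold change 0.20, adjusted p = 0.0211, edgeR). *Col4a1*, *Col4a2* and *Hspg2* were not called either, at log2 fold changes of 0.10, 0.13 and -0.29. The lines did not overlap for *Hspg2* and the 6 called genes, 7 of 10, beside 51.7% of all tested genes.

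**Figure D4:**
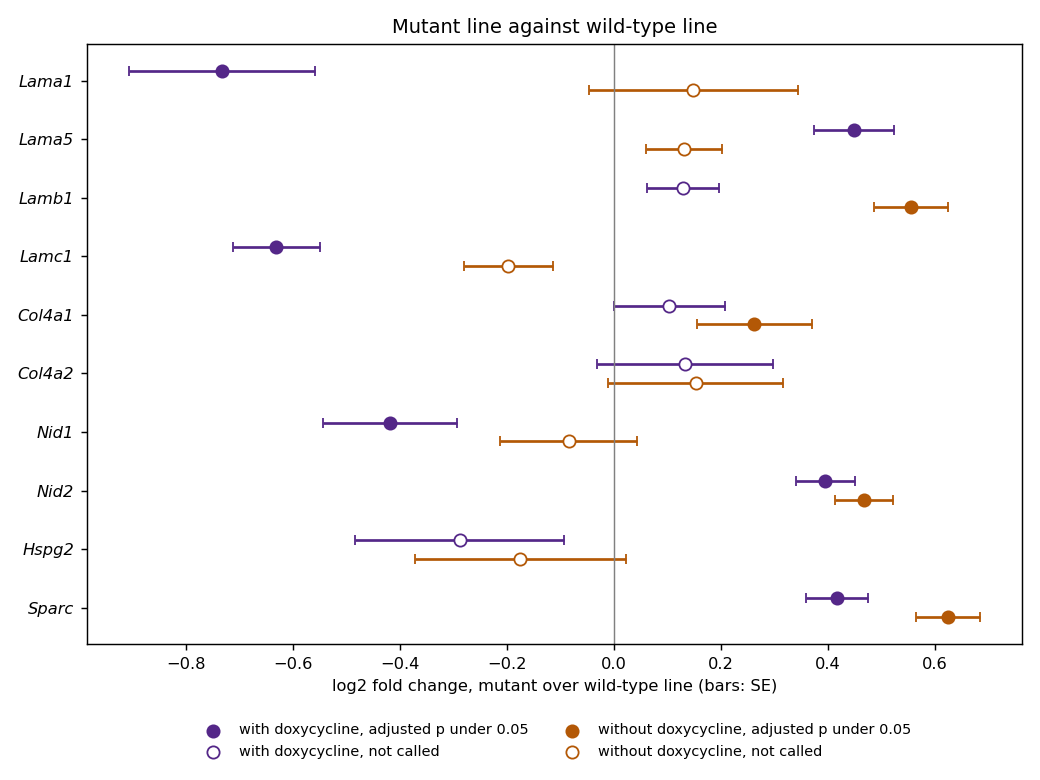
Log2 fold change of each gene in the mutant line over the wild-type line, with doxycycline and without it (points, with bars of 1 SE; filled points were called at an adjusted p under 0.05). *Nid2* and *Sparc* are filled on the right in both conditions, while *Lama1*, *Lamc1* and *Nid1* are filled on the left with doxycycline.

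Summed markers of some other cell types were higher in the mutant line and those of others lower. Of all tested genes, 45.5% were called between untreated lines (23.0% higher, 22.6% lower) and 44.4% between treated lines (21.9% higher, 22.4% lower). The 29 genes of an extraembryonic endoderm list, cells that make much of the early embryo's basement membrane, summed to 739.7 to 807 CPM in treated mutant and 716 to 767 CPM in untreated mutant libraries. In wild-type libraries they summed to 511 to 551 CPM with doxycycline and 491 to 561 CPM without it. Between the untreated lines 7 of its 15 tested genes were called higher and 0 lower, with the lipid carrier gene *Apoe* at the smallest p (log2 fold change 0.88). *Apoe* alone averaged 321 and 317 CPM in treated and untreated mutant embryoid bodies, against 170 and 172 CPM in wild-type ones. It thus made up much of the difference between the sums. The share called was near that background, but all 7 calls were higher. The median log2 fold change of the 15 genes was 0.47, beside 0.0035 over all tested genes. Between the treated lines 7 were higher and 1 lower, and *Foxa2* was the lower one. The defining markers *Gata6*, *Sox17*, *Sox7* and *Pdgfra* averaged below 1 CPM in every group, and *Gata4* averaged 2.20, 3.23, 0.607 and 1.15 CPM in treated mutant, untreated mutant, treated wild-type and untreated wild-type embryoid bodies. The 18 fibroblast and mesenchyme genes summed to 181 to 188 and 168 to 193 CPM in treated and untreated mutant libraries, against 51.2 to 52.0 and 41.1 to 60.5 CPM in wild-type ones. The smooth muscle gene *Tagln* took most of that in the mutant line, at 113 to 135 CPM in untreated mutant and 12.8 to 14.5 CPM in untreated wild-type libraries. *Acta2* averaged 21.2 and 3.60 CPM in these groups. Of the 9 tested genes 4 were called higher and 1 lower, both without and with doxycycline, at median log2 fold changes of -0.0953 and -0.00771. Of the defining markers *Twist1* was called higher without doxycycline (1.75) and with it (0.66). *Thy1* was not called in either, and *Prrx1* did not pass the filter on low counts. The 23 hypoxia genes summed to 14243 to 15466 and 14381 to 15600 CPM in treated and untreated mutant libraries, against 9967 to 11063 and 10887 to 13730 CPM in wild-type ones. Of the 22 tested, 5 were called higher and 0 lower without doxycycline, and 8 and 0 with it. Both shares lay below that of all tested genes, but all calls were higher. The median log2 fold changes were 0.32 and 0.54. *Gapdh* alone averaged 6906 CPM in treated mutant embryoid bodies. Its log2 fold change was 0.06 without doxycycline, not called, and 0.24 with it, called. The 17 endothelium and blood genes summed lower in the mutant line, at 50.6 to 58.3 and 47.8 to 64.4 CPM in treated and untreated libraries, against 69.0 to 79.6 and 72.5 to 79.6 CPM in wild-type ones. *Pecam1* alone averaged 18.5 CPM in untreated mutant and 39.8 CPM in untreated wild-type embryoid bodies. Of the 7 tested genes of this list 1 was called higher without doxycycline, *Etv2* (log2 fold change 1.65), and 2 lower. With doxycycline 1 was higher, again *Etv2* (1.25), and 1 lower. Of the 15 epiblast identity genes 3 were higher and 8 lower in the mutant line without doxycycline, and 4 higher and 5 lower with it. *Zfp42*, a gene of naive pluripotent cells, had log2 fold changes of -1.96 and -2.30 in these comparisons. The part of these markers in the basement membrane results between lines was not tested.

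Within the wild-type line 5.32% of all tested genes were called on doxycycline, and most of these lists had 0 or 1 gene called. An unadjusted p under 0.05 by edgeR was reached by 6 of 15 extraembryonic endoderm and 3 of 9 fibroblast and mesenchyme genes. The counts were 1 of 5 trophoblast, 4 of 22 hypoxia and 10 of 15 epiblast identity genes, beside 1966 of the 12322 genes tested. Extraembryonic endoderm had 1 of 15 genes called, *Foxa2*, with 38 counts over the treated and 2 over the untreated libraries. Fibroblast and mesenchyme genes had 1 of 9, *Zeb2* (log2 fold change 1.31), trophoblast genes 1 of 5, *Eomes* (1.62), a gene of the primitive streak as well, and hypoxia genes 1 of 22, *Gapdh* (-0.15), where DESeq2 called 2 and limma-voom 4. By edgeR 0 of 7 endothelium and blood genes were called, 0 had an unadjusted p under 0.05, and DESeq2 and limma-voom called 0. The embryoid bodies had the markers of epiblast in all groups, with *Pou5f1* averaging from 1033 to 1378 CPM and *Dnmt3b* from 2473 to 2707 CPM. Of 15 epiblast identity genes 2 rose and 5 fell, led by *Fgf5* (log2 fold change 0.88), a marker of the later epiblast, and *Pou3f1* (-0.99). The part of these changes in the laminin results was not tested.

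Of the other basement membrane genes 3 of 15 tested rose on doxycycline in the wild-type line and 0 fell, beside 2.76% higher and 2.56% lower of all tested genes. *Ntn1*, the laminin-related guidance factor netrin-1, averaged 10.8 ± 0.305 CPM with doxycycline and 4.36 ± 1.44 CPM without it (SD, n = 3; log2 fold change 1.31 with an SE of 0.23, adjusted p = 3.19e-05, edgeR). *Frem2*, a gene of the Fraser complex that anchors epithelia, had a log2 fold change of 0.53 (its SE was 0.14, adjusted p = 0.00967, edgeR). *Col18a1*, the collagen XVIII gene, averaged 402 ± 2.92 CPM with doxycycline and 356 ± 8.06 CPM without it (log2 fold change 0.17 with an SE of 0.04, adjusted p = 0.00691, edgeR).

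Receptors for the matrix had 9 of 27 genes called, 7 higher and 2 lower, beside 5.32% of all tested genes, and DESeq2 called 5. Both that fell are alpha subunits of laminin-binding integrins. *Itga3* averaged 26.3 ± 1.56 CPM with doxycycline and 42.2 ± 3.48 CPM without it (log2 fold change -0.68 with an SE of 0.10, adjusted p = 9.56e-07, edgeR). *Itga6* averaged 97.6 ± 6.03 CPM with doxycycline and 124 ± 1.60 CPM without it (log2 fold change -0.35 with an SE of 0.06, adjusted p = 4.05e-05, edgeR). The collagen receptor *Ddr1* rose, at 81.4 ± 5.62 CPM with doxycycline and 60.2 ± 2.73 CPM without it (log2 fold change 0.44 with an SE of 0.07, adjusted p = 1.59e-05, edgeR). The other six that rose, *Itga5*, *Bcam*, *Itga1*, *Itga9*, *Dag1* and *Itgb1*, were named after their values were seen. Their log2 fold changes were 0.53, 0.42, 1.66, 0.88, 0.19 and 0.16. *Bcam* encodes a laminin receptor of the immunoglobulin family and *Dag1* dystroglycan, which binds laminin.

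For the next 3 lists the share over all tested genes was 5.32% called (2.76% higher, 2.56% lower), and the synthesis and degradation counts lay near it. Of the genes for collagen synthesis and secretion 2 of 27 rose and 0 fell, *Pxdn*, the peroxidasin that crosslinks collagen IV (log2 fold change 0.35, adjusted p = 0.000703, edgeR), and the procollagen chaperone *Fkbp10* (0.38, adjusted p = 0.0210, edgeR). Of 24 matrix degradation genes 1 rose, the urokinase receptor *Plaur* (log2 fold change 1.14, adjusted p = 1.51e-05, edgeR), and of 20 interstitial matrix genes 2 rose, *Spp1* (0.48) and the fibrillin *Fbn2* (0.92). DESeq2 called 1 each of the synthesis and interstitial genes. In the mutant line edgeR called 0 of the 112 genes tested in these 5 matrix lists together, beside 0.0162% of all tested genes. There 4 had an unadjusted p under 0.05, and DESeq2 and limma-voom called 0. The difference between the responses was called for 10 of the 112, beside 2.49% of all tested genes. Among them were *Itga3* (mutant minus wild-type response 0.64, adjusted p = 0.000381, edgeR), *Frem2* (-0.85, 0.00164), *Ddr1* (-0.39, 0.00770), *Plaur* (-1.21, 0.00770) and *Pxdn* (-0.33, 0.0417). DESeq2 called 3 of the 112 and limma-voom 7.

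Between the untreated lines 9 of the 15 other basement membrane genes were higher in the mutant line and 2 lower, and 15 of 27 receptors were higher and 2 lower. Over the 5 matrix lists 57 of 112 genes were called, near the 45.5% of all tested genes (23.0% higher, 22.6% lower). The directions were uneven, with more genes higher than lower in each list but collagen synthesis and secretion. The integrin beta-5 gene *Itgb5* averaged 66.7 ± 1.06 CPM in mutant and 27.2 ± 0.264 CPM in wild-type embryoid bodies (SD, n = 3; log2 fold change 1.29 with an SE of 0.09, adjusted p = 1.57e-18, edgeR). Collagen synthesis and secretion went both ways, with 4 of 27 higher and 6 lower. *Pxdn* had a log2 fold change of 0.79 (adjusted p = 1.90e-14, edgeR), and *Serpinh1*, the collagen chaperone HSP47, one of 0.82 (adjusted p = 7.34e-08, edgeR). Of 24 degradation genes 8 were higher and 3 lower, with the membrane protease *Mmp14* at a log2 fold change of 1.24 (adjusted p = 7.89e-13, edgeR), and of 20 interstitial genes 6 were higher and 3 lower.

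With doxycycline in both lines the counts were 6 higher and 2 lower of the 15 basement membrane genes and 11 higher and 5 lower of the 27 receptors. Over the 5 matrix lists 56 of 112 genes were called, near the 44.4% of all tested genes (21.9% higher, 22.4% lower). Here too more genes were higher than lower in each list but collagen synthesis and secretion. *Itga3* had the smallest p of the receptors, though not the largest fold change, at 71.1 ± 4.54 CPM in mutant and 26.3 ± 1.56 CPM in wild-type embryoid bodies (SD, n = 3; log2 fold change 1.43 with an SE of 0.09, adjusted p = 4.42e-20, edgeR). *Agrn*, the gene of the proteoglycan agrin, had a log2 fold change of 0.41 (its SE was 0.06, adjusted p = 6.57e-08, edgeR). Of the collagen synthesis genes 5 were higher and 6 lower, of the degradation genes 8 and 5, and of the interstitial genes 6 and 3.

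**Figure D5:**
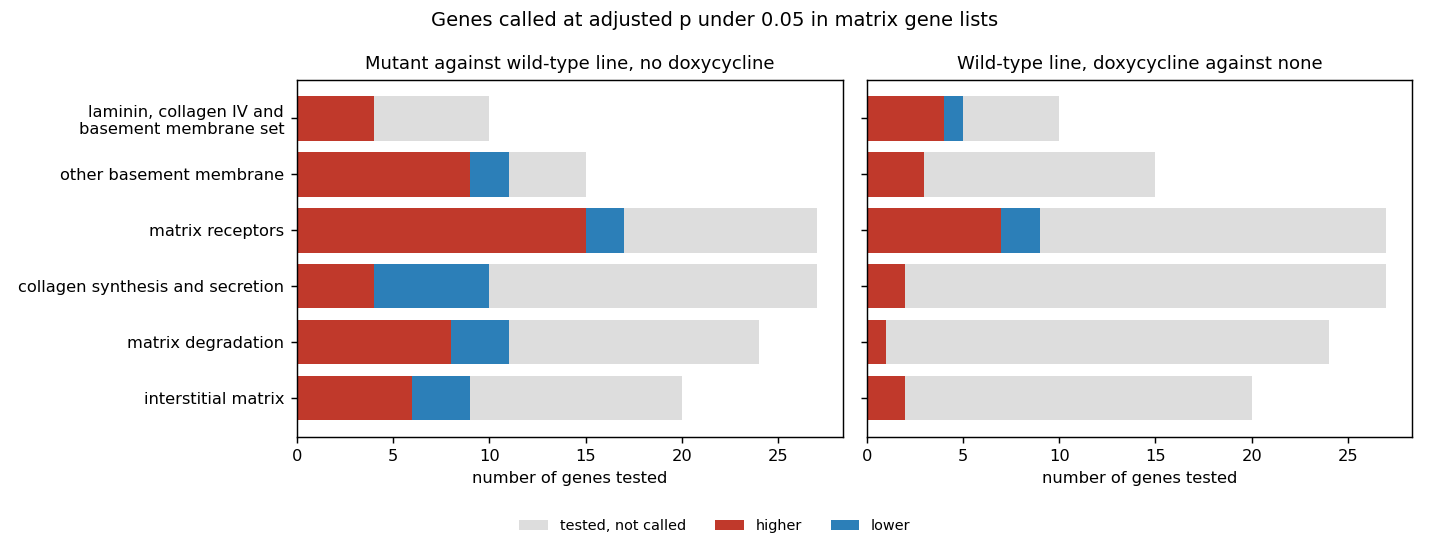
Number of tested genes called higher (red), called lower (blue) and not called (grey) in the set of 10 and in 5 further matrix lists, for mutant against wild-type embryoid bodies without doxycycline (left) and for doxycycline against none in the wild-type line (right). On the right the set of 10 has 4 higher and 1 lower, and the receptors 7 higher and 2 lower of 27.

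The genes whose pattern over the 4 groups lay nearest to those of the called laminins and *Sparc* were all outside the set. The search ran over all 12322 tested genes, of which very few belong to the set. This outcome therefore cannot show whether the set varied together. Nearness was the distance between centred group means of log2 CPM, over 4 groups of 3 libraries. *Lamb1* had *Magel2* at a distance of 0.0108 and *Rap1gap2* at 0.0341. *Lamc1* had *Rps6kl1* at 0.0250 and *Ap3m2* at 0.0318, and *Lama1* had *Ina* at 0.0512 and *Shf* at 0.0531. *Lama5* had *Cdk6* at 0.0307 and *Kdm6b* at 0.0362, and *Sparc* had *Csrnp2* at 0.0279 and *H2afy2* at 0.0336.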

How the data were processed

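RNA from embryoid bodies was extracted with the RNeasy Micro Kit and TruSeq RNA Sample Prep Kit libraries were made from it, per the labels. Per the submitters' processing notes, Trimmomatic 0.33, TopHat2 2.1.1, limma and the mm10 genome were used. The authors deposited raw counts of reads per gene symbol for all 12 libraries. The sources used here do not name the counter, annotation or strand setting. Of the symbols, 27 had been turned into dates and are not named.

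Groups came from the labels. Nothing says that replicates came from separate cultures, so p-values measure the spread between these libraries, which may be technical. The lowest chi-square per degree of freedom between replicates was 1.11, so no library was counted as a duplicate. Counts were tested with edgeR 4.0.16 in R 4.3.3 (TMM scaling, filterByExpr at 10 counts, robust quasi-likelihood fit, 1 mean per group over 12 libraries, Benjamini-Hochberg adjustment over 12322 genes), and the code was tested on simulated data. The tested genes held 99.8% of all counts. At this depth counting error limits genes with few counts, and intervals cover the spread between libraries only. Exon lengths are the union of GENCODE M21 exons, and upstream sequences are RefSeq's. Alternatives were other scalings, DESeq2 1.42.0, limma-voom 3.58.1, no filter, only the libraries compared, a replicate block, and leaving out libraries.

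The 10 genes and 11 further gene lists were chosen with earlier results of these data known. All 10 were named in each comparison. From each other list up to 3 called genes with the smallest adjusted p could be named, plus *Lhx1*, *Bnip3*, *Rn45s* and the 2 genes nearest to each member called in the wild-type response. Other names were chosen after their values were seen.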

Additional observations from a re-analysis of the deposited data

Results flagged for a closer look

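The response of *Lamb1* to doxycycline differed between the lines in a test of the difference itself. It was -0.43 on the log2 scale, mutant minus wild-type response (SE 0.10, edgeR's quasi-likelihood test, adjusted p = 0.00403), with 96.9 to 114 and 108 to 118 CPM in treated and untreated mutant libraries and 91.1 to 104 and 73.9 to 77.6 CPM in treated and untreated wild-type ones. Over 19 alternatives the difference lay between -0.49 and -0.35, with adjusted p-values from 0.000957 to 0.0610, and DESeq2 alone did not call it.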

How the results depend on the processing

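No called value changed sign. Of the 10 genes' values in each comparison under the alternatives, 138 of 140 in the wild-type response, 130 of 130 in the mutant response, 176 of 190 in the difference of responses, 126 of 140 between untreated lines and 136 of 140 between treated lines kept their side of the threshold. In the wild-type response 655 genes were called, 347 with DESeq2 and 501 to 599 with 1 library left out. Of the 10 genes 5 were called, also with any 1 library left out, but 3 without both libraries that stood apart. In the mutant response 2 genes were called, and 5 when only the libraries compared were fitted. In the difference of responses 307 genes were called, 133 with DESeq2 and 229 to 322 with 1 library left out. Of the 10 genes 1 was called there, 2 with upper-quartile scaling, with limma-voom and without both libraries that stood apart, 4 without the filter, and 1 to 3 with 1 library left out. With the longest transcript as length, *Col4a1* over *Col4a2* was 2.59 in untreated mutant embryoid bodies. *Nid2* over *Nid1* was 16.5 in untreated mutant, 9.41 in treated wild-type and 11.3 in untreated wild-type ones, and *Lamb1* over *Lamc1* was 0.957, 0.981, 0.567 and 0.577 in treated mutant, untreated mutant, treated wild-type and untreated wild-type ones. The cause of these shifts, other than fewer libraries or another length, was not tested. Same-numbered libraries correlated at -0.203 to 0.210 in the wild-type response, and 1 of 3 pairs was over 0.1. So few pairs cannot settle whether the numbers pair the libraries, and the main test left the number out. With the replicate number as a block, edgeR called 618 genes in the wild-type response, 2 in the mutant response, 286 in the difference, 5502 between untreated and 5354 between treated lines, and of the 10 genes 5, 0, 1, 4 and 6.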
